A study of Mus musculus with 6 samples.

Results

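The Slc25a genes encode the mitochondrial carriers, and 45 of them were found among the 23021 rows that carry a gene symbol outside a block of chromosome 1 rows at the head of the tables whose symbols are unreliable. Members were all genes whose symbol starts with Slc25a, with 1 pseudogene row (Slc25a5-ps) left out, in tables of 24927 rows. The data are 6 whole-liver RNA-seq libraries of C57BL/6 mice labelled male, 10 months old and fed chow. In 3 the labels give the genotype wild type, and in 3 Cdkl3-/-, called here the libraries labelled knockout. The design text places the knockout of Cdkl3, a cyclin-dependent kinase-like gene, in the liver, and the labels name no promoter, Cre line or exon for it. The labels count 6 samples without stating that these are 6 separate mice. The p-values therefore speak only to the spread from library to library, which may be technical.

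Mitochondrial carriers sit in the inner mitochondrial membrane, which is closed to most charged metabolites, and exchange or import 1 class of substrate each. They bring ADP, phosphate, acylcarnitines and cofactors into the matrix and send ATP, citrate, aspartate and citrulline out. In liver they join the urea cycle, gluconeogenesis, fatty acid oxidation and lipid synthesis, whose steps are divided between matrix and cytosol.

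Several facts of the whole series touch every value below. Values are FPKM, in which reads are divided by transcript length and by library depth, which allows levels to be set side by side between genes per length, but not free of the base composition described below. Whole-read steps in the values gave depths of 20460000 to 48610000 counted reads per library. Cdkl3 itself measured 0.166, 0.0883 and 0.119 FPKM in wild type replicates 1 to 3 and 0.0761, 0.146 and 0.195 FPKM in knockout replicates 1 to 3 (log2 difference 0.02, SE 0.06, limma adjusted p = 0.84 without a filter), so the targeted gene did not separate the labels. Xist ranged from 192 to 292 FPKM in wild type and reached at most 0.0273 FPKM in knockout, and Kdm5d, Uty, Eif2s3y and Ddx3y of the Y chromosome ran the opposite way. Sex as these genes show it and labelled genotype cannot be told apart. Of 8 listed hepatocyte markers 7 had a usable row and summed to 1417 to 1726 FPKM in wild type and 2142 to 3022 FPKM in knockout, although the hepatocyte genes Apoa1 and Asgr1 stayed under 0.18 FPKM in each wild type library. Apob alone of the 7 had a lower mean in knockout (1168 FPKM in wild type and 1057 FPKM in knockout). The 6 kidney tubule markers summed to 5279 FPKM in knockout replicate 1, nearly all of it Kap, against 0.380 to 5.84 FPKM in the other libraries. Stellate cell markers (3 of 5 usable) summed to 13.8 to 17.9 FPKM in wild type and 3.98 to 7.56 FPKM in knockout, and the 5 endothelial markers to 9.63 to 11.2 and 5.01 to 5.19 FPKM. Within these sums the low markers had higher means in knockout, and the rest had lower means. The low ones were Col1a1 (0.0260 FPKM in wild type and 0.0520 FPKM in knockout), Stab2 (0.0469 and 0.0831) and Pecam1 (0 and 0.0837). Sums of the 5 macrophage markers (13.6 to 26.3 and 8.44 to 41.2 FPKM) and of 3 of 5 cholangiocyte markers (50.2 to 67.8 and 29.2 to 50.7 FPKM) overlapped between groups. Adgre1 was lower in each knockout library (means 5.63 and 1.93 FPKM), while the other macrophage markers had higher means in knockout. Sox9 (means 0.752 and 1.81 FPKM) and Epcam (0.0651 and 0.327 FPKM) were higher in each knockout library, and Spp1 had a lower mean (58.2 and 40.2 FPKM). For adipocytes 3 of 4 markers summed to at most 0.162 FPKM in wild type and to 3.69, 0 and 5.06 FPKM in knockout replicates 1 to 3, and 3 of 5 lymphocyte markers stayed under 0.25 FPKM. The part of other cell types in the carrier values was not tested. In bulk tissue, fewer cells of a type and less RNA per cell cannot be told apart.

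Among carriers, 3 genes dominated the wild type libraries: Slc25a13, Slc25a5 and Slc25a16. Together they made up 65.9% to 69.1% of the summed FPKM of the 45 members in each wild type library. The summed FPKM was 526, 573 and 596 in wild type replicates 1 to 3 and 386, 310 and 334 in knockout replicates 1 to 3, so the groups did not overlap. Each of the 3 leading genes was lower in every library labelled knockout than in any wild type library, and the ornithine carrier Slc25a15 took the third place there. The share of Slc25a13 in the sum was 32.8% ± 4.60 (SD, n = 3) in wild type and 18.1% ± 2.66 in knockout, while that of Slc25a15 was 5.09% ± 1.99 and 13.4% ± 2.06. Mitochondrially encoded transcripts held 72.7% ± 1.91 of all FPKM in wild type and 67.6% ± 3.84 in knockout, and in the remaining FPKM the carriers held 0.385% ± 0.0153 and 0.195% ± 0.0363. These sums are descriptions with no test.

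**Figure D1:**
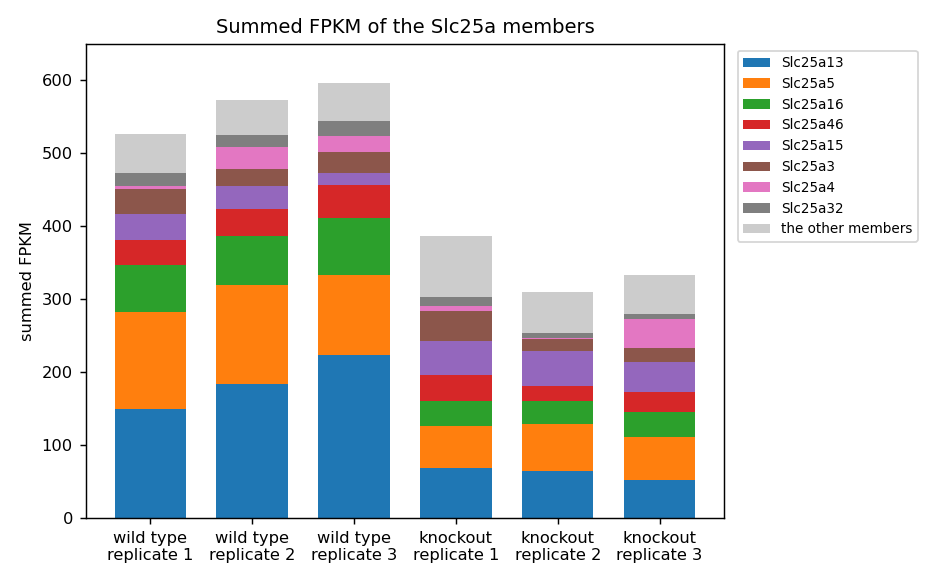
Stacked bars give the summed FPKM of the 45 Slc25a members in each of the 6 libraries, with the 8 members of highest level coloured and the rest in light grey. The wild type bars reach 526 to 596 FPKM and the knockout bars 310 to 386 FPKM, and the Slc25a13, Slc25a5 and Slc25a16 segments are shorter in each knockout library.

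The difference between groups was tested on log2(FPKM + 1) with limma over 5673 genes that reached 1 FPKM in at least 3 libraries, and a Benjamini-Hochberg adjusted p under 0.05 was called. Of the 45 members 18 passed that filter, and all 18 were at or above 1 FPKM in each of the 6 libraries, so none entered through 1 group alone. In the libraries labelled knockout 6 of these 18 fell and 3 rose. Among all genes tested 20.4% were lower and 33.7% higher, against 33.3% and 16.7% of the tested carriers. Here and below, the shares of all genes include genes that passed the filter through 1 group alone, unlike the carriers. Shares without such genes were not computed. The groups were apart in 9 of the 18, with knockout below in 6 (25.8% of all genes) and above in 3 (38.0% of all genes). The median log2 difference was -0.39 over the 18 members and 0.12 over all genes. Scaling moved this split. Centring each library on its median took the median of all genes to -0.16 and gave 1 higher and 9 lower members, beside 25.4% and 33.3% of all genes. Quantile normalization (median of all genes -0.13) gave 2 higher and 7 lower, beside 25.2% and 31.0% of all genes. Rescaling to the FPKM outside the mitochondrially encoded rows gave 0 higher and 8 lower, beside 25.3% and 28.2% of all genes (median of all genes -0.08). At an adjusted p under 0.01 the members numbered 0 higher and 5 lower, beside 24.6% and 11.6% of all genes. Without knockout replicate 1, the library with kidney transcripts, 2 were higher and 9 lower, beside 33.2% and 19.0%. Leaving out wild type replicate 2, wild type replicate 3, knockout replicate 2 or knockout replicate 3 left 1 higher and 5 lower. Shares of all genes were not computed for these fits, so these counts cannot be set against all genes.

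**Figure D2:**
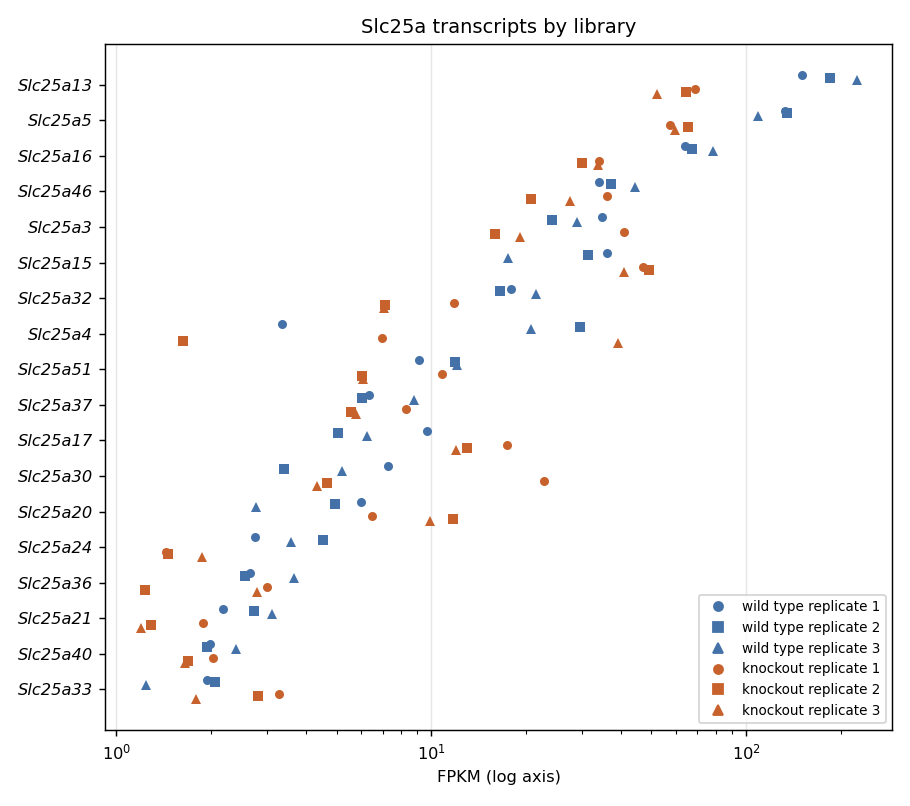
Points give the FPKM (log axis) of the 18 tested Slc25a members in each library, blue for wild type and orange for knockout, with a symbol per replicate number. Slc25a13, Slc25a5, Slc25a16, Slc25a32, Slc25a24 and Slc25a21 lie lower in all 3 knockout libraries, Slc25a17, Slc25a20 and Slc25a15 lie higher, and Slc25a4 spreads from 1.62 to 39.2 FPKM.

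The aspartate and glutamate carriers export matrix aspartate for the malate-aspartate shuttle and the urea cycle, and Slc25a13 (citrin) is the form known from liver. Slc25a13 measured 149.9, 184 and 224 FPKM in wild type replicates 1 to 3 and 68.7, 64.6 and 51.9 FPKM in knockout replicates 1 to 3. The lowest wild type library was thus above 2 times the highest knockout library, and the mean was 3.01 times higher in wild type. It was the member with the largest called difference (log2 -1.57, SE 0.21, limma adjusted p = 0.00068). Its close relative Slc25a12 (aralar), the form of brain and muscle, was under the filter, at 0.424 ± 0.152 FPKM (SD, n = 3) in wild type and 1.28 ± 0.836 FPKM in knockout. Its 359 reads in wild type and 811 in knockout gave a rate ratio of 2.62 (95% exact interval 2.31 to 2.97, counting error only), and its limma adjusted p without a filter was 0.14. Knockout replicates 1 to 3 measured 0.822, 0.768 and 2.24 FPKM of Slc25a12. Replicate 3, with 440 of the 811 reads, is also the library where skeletal muscle markers summed to 4.47 FPKM. The part of muscle RNA in Slc25a12 was not tested. The ratio of Slc25a13 to Slc25a12 FPKM was 324 to 843 in wild type and 23.2 to 84.1 in knockout, a pair chosen after their values were seen. The glutamate carriers were hardly seen, with Slc25a22 at 0 reads in wild type and 6 in knockout and Slc25a18 at 0 in all libraries.

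ADP/ATP carriers supply the matrix ATP synthase with ADP, and Slc25a3 brings its phosphate. The ubiquitous ADP/ATP carrier Slc25a5 measured 133, 135 and 109 FPKM in wild type and 57.4, 65.4 and 59.6 FPKM in knockout. The groups were well apart, with 2.07 times more in wild type (log2 -1.03, SE 0.17, limma adjusted p = 0.0016). Slc25a5 lies on the X chromosome, where 28.2% of the 255 tested genes were lower and 25.1% higher in knockout, with a median log2 difference of -0.24. The X-linked gene Slc25a53, a carrier of unsettled substrate, was also lower in knockout (0.692 ± 0.0612 and 0.287 ± 0.0376 FPKM), while X-linked Slc25a14 was higher (0.135 ± 0.141 and 0.593 ± 0.0899 FPKM), both called only without the filter (adjusted p = 0.022 and 0.028). Reads of Slc25a5 can be split with its processed copies, of which the Slc25a5-ps row held at most 0.145 FPKM. Its level is uncertain for that reason, and reads shared with other copies were not measured.

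Slc25a4, the ADP/ATP carrier of heart and skeletal muscle, varied more within groups than between them. It measured 3.36, 29.7 and 20.8 FPKM in wild type and 6.98, 1.62 and 39.2 FPKM in knockout. Both groups thus held low and high libraries, and the difference had a wide interval (log2 -0.60, 95% interval -3.81 to 2.62, limma adjusted p = 0.72). The 4 skeletal muscle markers summed to 4.47 FPKM in knockout replicate 3, where Slc25a4 was highest, to 0.0998 and 0 in knockout replicates 1 and 2, and to at most 0.00342 FPKM in wild type, where replicate 2 still held 29.7 FPKM of Slc25a4. The ratio of Slc25a5 to Slc25a4 ran from 4.53 to 39.6 in wild type and from 1.52 to 40.3 in knockout. Slc25a3 measured 34.9, 24.1 and 29.0 FPKM in wild type and 40.9, 15.9 and 19.1 FPKM in knockout (limma adjusted p = 0.46). Its knockout replicate 1 was the highest of all 6 libraries, and without that library Slc25a3 was called lower (log2 -0.70, limma adjusted p = 0.028). The testis form Slc25a31 was under the filter, at 0.153 ± 0.138 and 0.0612 ± 0.0551 FPKM.

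Carriers of cofactors and nucleotides numbered 9, of which 6 were tested, with 2 lower and 1 higher. Slc25a16, linked to coenzyme A transport, measured 64.0, 67.2 and 78.5 FPKM in wild type and 34.1, 30.2 and 33.9 FPKM in knockout. The replicates lay close together in both groups (log2 -1.07, SE 0.16, limma adjusted p = 0.0011). Slc25a32, the folate and FAD carrier, measured 17.9, 16.5 and 21.5 FPKM in wild type and 11.8, 7.11 and 7.08 FPKM in knockout. It fell by 1.05 on the log2 scale (SE 0.22, limma adjusted p = 0.0052), with knockout replicate 1 nearest to the wild type libraries.

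Slc25a17 went the other way. It is a peroxisomal member of the family that carries coenzyme A, FAD and NAD, so it does not serve mitochondria. It measured 9.71, 5.05 and 6.25 FPKM in wild type and 17.4, 13.0 and 12.0 FPKM in knockout. All knockout libraries lay above the wild type range, with a mean 2.02 times higher (log2 0.94, SE 0.25, limma adjusted p = 0.013). The ratio of Slc25a16 to Slc25a17 was 6.60 to 13.3 in wild type and 1.96 to 2.83 in knockout, a pair chosen after their values were seen. The NAD carrier Slc25a51 was at 11.1 ± 1.66 and 7.64 ± 2.78 FPKM (limma adjusted p = 0.1), and knockout replicate 1, at 10.8 FPKM, lay within the wild type range. Without that library Slc25a51 was called lower (log2 -0.77, limma adjusted p = 0.014). The pyrimidine nucleotide carriers Slc25a33 and Slc25a36 were not called, at 1.74 ± 0.438 and 2.63 ± 0.767 FPKM for Slc25a33 and 2.96 ± 0.602 and 2.35 ± 0.969 FPKM for Slc25a36. Slc25a26, the S-adenosylmethionine carrier, and Slc25a42, a coenzyme A carrier, stayed under 0.25 FPKM in each library.

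The ATP-Mg/phosphate carriers adjust the adenine nucleotide pool of the matrix in response to calcium, and 1 of the 4 was tested. Slc25a24 measured 2.76, 4.53 and 3.58 FPKM in wild type and 1.44, 1.46 and 1.87 FPKM in knockout. All knockout libraries lay under the wild type libraries (log2 -0.82, SE 0.18, limma adjusted p = 0.0065). Slc25a25, under the filter, measured 0.0141, 0.0602 and 0.0373 FPKM in wild type and 1.83, 0.778 and 0.743 FPKM in knockout. Its reads numbered 33 in wild type and 751 in knockout, a rate ratio of 26.3 (95% exact interval 18.6 to 38.6, counting error only), and it was called in the fit without a filter (log2 0.99, limma adjusted p = 0.018). Slc25a23 had 0 reads in wild type and 63 in knockout, with 7, 44 and 12 in knockout replicates 1 to 3. Scaled for depth, this was 24.3-fold above a floor of 3 reads over the wild type group. That value takes the 63 reads as exact, so it is not a lower limit. The gene was not called without the filter (limma adjusted p = 0.086). Slc25a54 had a single read in 6 libraries.

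Slc25a20 imports acylcarnitines, the form in which long-chain fatty acids reach the matrix for oxidation. It measured 5.96, 4.93 and 2.77 FPKM in wild type and 6.50, 11.8 and 9.93 FPKM in knockout, with knockout replicate 1 close to wild type replicate 1. The groups did not overlap and the gene rose by a log2 difference of 0.92 (SE 0.29, limma adjusted p = 0.026). Slc25a15 exchanges ornithine and citrulline for the urea cycle. It measured 36.1, 31.4 and 17.5 FPKM in wild type and 47.1, 49.0 and 41.0 FPKM in knockout (log2 0.73, SE 0.26, limma adjusted p = 0.047). Its knockout libraries were alike, and wild type replicate 3 stood lowest. Without wild type replicate 3 the difference was 0.42 for Slc25a15 and 0.66 for Slc25a20, and neither was called (limma adjusted p = 0.11 and 0.086). Over the 6 fits that leave out 1 library the call of Slc25a15 held only without wild type replicate 1 (adjusted p 0.025, and 0.067 to 0.12 in the others). That of Slc25a20 held only without wild type replicate 1 or knockout replicate 1 (adjusted p 0.021 and 0.012, and 0.055 to 0.086 in the others). Of the other basic amino acid carriers, Slc25a2 had 1 read in wild type and 12 in knockout, and Slc25a29 was at 0 in all libraries.

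Citrate, dicarboxylate and oxoglutarate carriers feed cytosolic lipid synthesis and gluconeogenesis, and 1 of the 4 was tested. Slc25a21, which carries oxoadipate from lysine and tryptophan breakdown, measured 2.18, 2.73 and 3.11 FPKM in wild type and 1.88, 1.29 and 1.20 FPKM in knockout. It was lower in each knockout library (log2 -0.58, SE 0.18, limma adjusted p = 0.023). The call was lost without wild type replicate 2, wild type replicate 3, knockout replicate 2 or knockout replicate 3 (limma adjusted p 0.063 to 0.085), and without a filter (adjusted p = 0.053). The oxoglutarate carrier Slc25a11 was at 0.163 ± 0.0284 and 0.552 ± 0.170 FPKM, called higher only without the filter (limma adjusted p = 0.034). The dicarboxylate carrier Slc25a10 had 2 reads in wild type and 46 in knockout, a rate ratio of 26.6 with an exact 95% interval from 6.96 to 226 for counting error only, and was not called without the filter (limma adjusted p = 0.12). The citrate carrier Slc25a1, known from lipogenic liver, had 0 reads in wild type and 6 in knockout.

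None of the 3 tested members that carry iron or glutathione or resemble uncoupling proteins was called with the filter and without further scaling. Slc25a40 was called lower after median centring (log2 -0.44, limma adjusted p = 0.036) and after quantile normalization (log2 -0.51, adjusted p = 0.024). Removal of the GC trend turned its sign without a call (log2 0.31, limma adjusted p = 0.087). So did removal of the GC and length trends (log2 0.36, limma adjusted p = 0.051). Mitoferrin 1 (Slc25a37) measured 7.06 ± 1.55 and 6.54 ± 1.51 FPKM (log2 difference -0.10, 95% interval -0.59 to 0.39) and mitoferrin 2 (Slc25a28) 0.326 ± 0.103 and 0.433 ± 0.0130 FPKM. The glutathione carrier Slc25a40 was at 2.11 ± 0.254 and 1.79 ± 0.206 FPKM (log2 difference -0.16, 95% interval -0.49 to 0.18), while its relative Slc25a39 was at 0 in all libraries. Slc25a30, also called kidney mitochondrial carrier protein, measured 7.29, 3.41 and 5.20 FPKM in wild type and 22.8, 4.67 and 4.33 FPKM in knockout. Only knockout replicate 1 stood out, and that is the library with 5264 FPKM of the kidney transcript Kap, 9.77 of Slc12a1, 2.34 of Slc34a1 and 2.02 of Lrp2. Without it the log2 difference of Slc25a30 was -0.15 (limma adjusted p = 0.68), against 0.56 (adjusted p = 0.46) with it. The part of kidney RNA in Slc25a30 and in the other members of that library was not tested. Slc25a27, the neuronal uncoupling protein, was at 0.350 ± 0.179 and 0.216 ± 0.0639 FPKM.

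Of the members with less settled substrates, Slc25a46, an outer membrane protein of mitochondrial dynamics, had the fourth highest mean level in wild type, although Slc25a15 and Slc25a3 lay above it in replicate 1. It measured 34.1, 37.2 and 44.2 FPKM in wild type and 36.1, 20.7 and 27.6 FPKM in knockout, so the groups overlapped through knockout replicate 1 (log2 -0.47, limma adjusted p = 0.11). Without that library it was called lower (log2 -0.66, limma adjusted p = 0.034). Median centring (log2 -0.75, limma adjusted p = 0.031) and rescaling without mitochondrially encoded rows (log2 -0.73, adjusted p = 0.03) also called it lower. With the GC trend removed it was not called (log2 -0.15, limma adjusted p = 0.58). The same held with the GC and length trends removed (log2 -0.04, limma adjusted p = 0.88). The branched-chain amino acid carrier Slc25a44 was at 0.0193 ± 0.0242 and 0.504 ± 0.281 FPKM, called higher without the filter (limma adjusted p = 0.04). The glycine carrier Slc25a38 had 2 reads in wild type and 24 in knockout. Slc25a35, Slc25a43, Slc25a45 and Slc25a48 each had 0 reads in wild type and 2 to 9 in knockout.

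**Figure D3:**
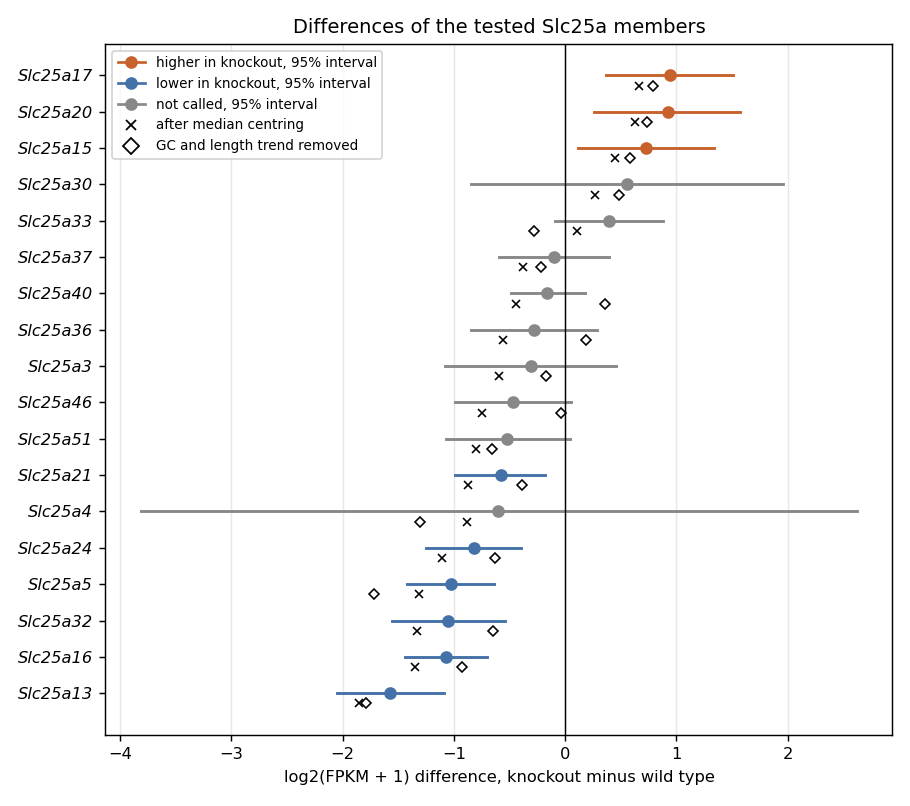
Filled points give the log2(FPKM + 1) difference, knockout minus wild type, of the 18 tested members with limma 95% intervals, orange for called higher, blue for called lower and grey for not called. Crosses and diamonds give the difference after median centring and after the GC and length trends were taken out, and the 9 called members keep their direction under both.

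Members under 50% GC passed the filter more often than members at or above 50%. The longest annotated transcript had a median GC content of 45.3% in the 18 tested members and 53.6% in the 27 under the filter. Of 24 members under 50% GC 16 were tested, and of 21 members at or above 50% only 2, Slc25a4 and Slc25a33. Over all genes the share that passed the filter was 37.1% under 45% GC, 27.7% from 45 to 50%, 13.8% from 50 to 55% and 3.92% from 55% up. The 4 members at 0 in all 6 libraries had 53.6% (Slc25a18), 57.1% (Slc25a47), 59.7% (Slc25a39) and 60.4% GC (Slc25a29). Slc25a47 is known as a liver carrier, and a count of 0 allows at most 0.0207 to 0.0491 FPKM of it per library at 3 reads, for counting error only. Tomm40, the channel through which mitochondria import most proteins, was also at 0 in wild type and at most 0.0166 FPKM in knockout. Exons of the tested members Slc25a33 (14.9%), Slc25a46 (7.06%), Slc25a37 (6.33%) and Slc25a21 (3.88%) overlap genes of the opposite strand, whose reads cannot be told apart here. Among low members the same holds for Slc25a35 (31.3%), Slc25a11 (8.92%), Slc25a10 (6.60%), Slc25a25 (4.82%, with Naif1) and Slc25a23 (3.17%), among others. A value at or near 0 in these tables therefore does not by itself show that a carrier is not expressed, and the part of base composition in it was not tested.

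**Figure D4:**
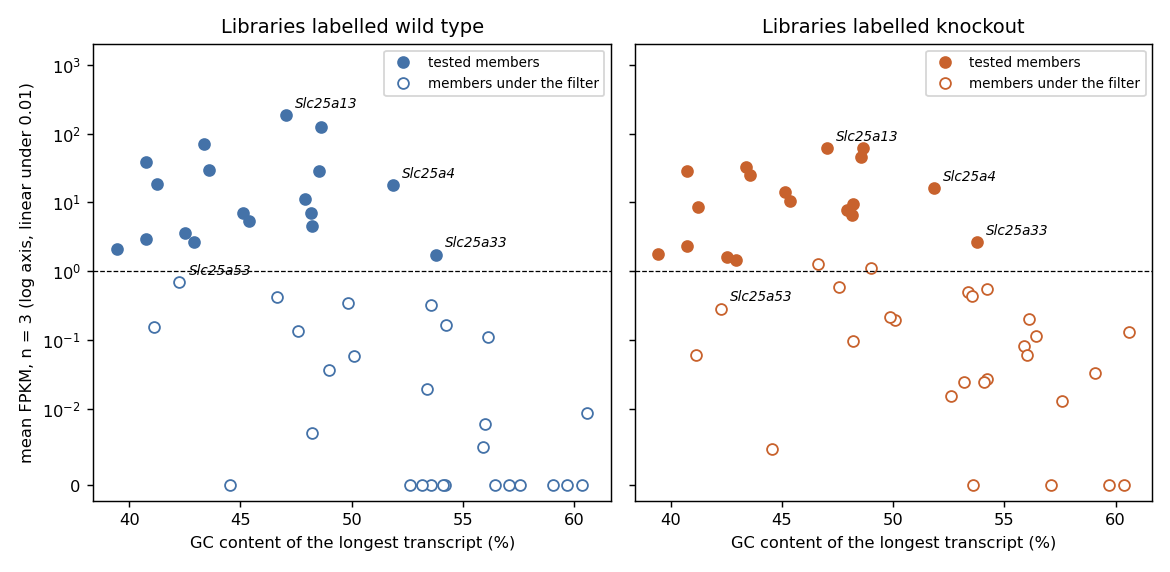
Each point is 1 of the 45 members, with the GC content of its longest transcript (%) against its mean FPKM over 3 libraries (log axis, linear under 0.01), wild type on the left and knockout on the right. Filled points are the 18 tested members, open points the 27 under the filter, the dashed line marks 1 FPKM, and from 55% GC up no member is tested.

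Across the 18 tested members GC content and the log2 difference had a rank correlation (Spearman's rho) of 0.19, a description only, over genes that share the same 6 libraries. The 6 lower members had a median GC of 43.1% and the 3 higher ones 48.2%. Below 45% GC 4 of 8 tested members were lower and 0 higher, beside 27.3% and 21.3% of all tested genes in that range. From 45 to 50% GC 2 of 8 were lower and 3 higher, beside 13.0% and 44.8%. Taking out the GC trend of each library left 7 members lower and 1 higher, beside 18.3% and 32.5% of all genes. Taking out the trends with GC content and with length left 6 members lower and 2 higher, beside 17.5% and 34.3% of all genes. Slc25a5 was then at log2 -1.72 and Slc25a13 at -1.79, and Slc25a32 at -0.65. In that fit Slc25a21 (limma adjusted p = 0.074) and Slc25a15 (adjusted p = 0.087) were not called, and Slc25a51 was called lower (log2 -0.66, adjusted p = 0.048).

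Of the 27 members under the filter, 20 had a higher mean in knockout, 3 had a lower mean and 4 were at 0 throughout. The groups were apart in 12 of the 27, with knockout above in 11 (23.8% of all rows under the filter) and below in 1, Slc25a53 (4.05%). Without a filter 41 members and 20529 genes entered the fit, and 6 members were higher and 6 lower, beside 15.4% and 5.09% of all genes. Higher then were Slc25a25, Slc25a14, Slc25a11, Slc25a2, Slc25a44 and Slc25a17, of which only Slc25a17 passed the filter. Lower were Slc25a53 and the 5 members Slc25a13, Slc25a16, Slc25a5, Slc25a32 and Slc25a24. All rows under the filter also lay more often above (23.8%) than below (4.05%) in knockout, so this lean is not particular to carriers. No share over all rows was computed for the counts of higher and lower means. These are levels where 1 read on a transcript of 1 kb is worth 0.0206 to 0.0489 FPKM.

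The promoters of called carriers are shown because these genes moved in both directions in the same comparison. RefSeq promoter entries (GRCm38.p6) matched 35 of the 45 members, and 6 of the 9 called members had 1 start site. For these the 150 bases before the start are printed 5′ to 3′ on the strand of the gene, with capitals for matches, on either strand, to a GC box, an NF-Y box, an ETS site, an NRF1 half-site, a TATA box or a STAT site, whose letters stand beside the counts after the sequences. The 4 members that fell come first, then Slc25a17 and Slc25a20, which rose.
Slc25a13: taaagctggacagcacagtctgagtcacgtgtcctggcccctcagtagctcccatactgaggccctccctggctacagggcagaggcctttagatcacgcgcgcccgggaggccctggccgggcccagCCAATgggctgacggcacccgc
Slc25a16: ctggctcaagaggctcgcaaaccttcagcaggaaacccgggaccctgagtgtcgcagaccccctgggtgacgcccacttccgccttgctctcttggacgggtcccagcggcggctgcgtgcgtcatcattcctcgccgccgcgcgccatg
Slc25a5: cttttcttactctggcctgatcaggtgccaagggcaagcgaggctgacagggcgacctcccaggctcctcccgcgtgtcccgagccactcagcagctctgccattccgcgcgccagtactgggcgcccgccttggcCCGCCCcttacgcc
Slc25a24: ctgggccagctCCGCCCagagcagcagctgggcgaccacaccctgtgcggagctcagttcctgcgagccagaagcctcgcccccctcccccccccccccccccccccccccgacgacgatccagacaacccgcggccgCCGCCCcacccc
Slc25a17: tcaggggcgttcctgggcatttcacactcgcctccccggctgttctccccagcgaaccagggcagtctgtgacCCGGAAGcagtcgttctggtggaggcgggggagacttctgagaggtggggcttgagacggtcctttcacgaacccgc
Slc25a20: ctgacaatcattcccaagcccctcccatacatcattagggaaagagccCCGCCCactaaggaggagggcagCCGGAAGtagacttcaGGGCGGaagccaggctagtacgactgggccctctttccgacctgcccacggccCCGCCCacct

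The windows lie at chr6:6217174-6217323 (minus strand) for Slc25a13, chr10:62920483-62920632 (plus) for Slc25a16, chrX:36795447-36795596 (plus) for Slc25a5, chr3:109122999-109123148 (plus) for Slc25a24, chr15:81360766-81360915 (minus) for Slc25a17 and chr9:108661986-108662135 (plus) for Slc25a20. All 6 are GC-rich, from 62.0% in Slc25a20 to 77.3% in Slc25a24, against a median of 54.0% over 32851 promoter windows of the same length. None of the 6 held a TATA box (the letters TATAAA), which 7.57% of all windows hold. None held an NRF1 half-site (TGCGCA, in 4.90% of all windows). The STAT site (TTCNNNGAA, in 4.09% of all windows) was also without a match in the 6. An ETS match (CCGGAAG) was present in 2 of the 6, Slc25a17 and Slc25a20. It was in 4 of 45 member start windows (8.89%) against 5.52% of all windows. Slc25a15, also called higher, is not among the printed windows, and 6 windows are too few to set matches against direction. GC box matches (GGGCGG) were in Slc25a5, Slc25a24 and Slc25a20, and in 26 of 45 member start windows (57.8%) against 28.6% of all windows, with a median GC of 62.0% in the member windows. Several members have more than 1 start, so these windows are not independent. The NF-Y letters (CCAAT) were in Slc25a13 alone of the 6, and in 24.5% of all windows. A match is a description of letters, not of a bound site.

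Other mitochondrial transport genes were read from a list of 47 genes that are not Slc25a members, of which 43 had a usable row and 19 were tested. Of the 19, 4 passed the filter through knockout alone, and 3 of these, Timm44, Timm29 and Tomm5, were called higher, a direction that the filter fixed. Among the other 15, 4 rose and 3 fell, beside 33.7% and 20.4% of all genes tested. Those shares also hold genes that passed through knockout alone. Of the 4 that rose, Vdac1 was at 1.74, 0.942 and 0.560 FPKM in wild type replicates 1 to 3. It met the filter only with its knockout values, so the filter favoured its direction too. Among protein import genes outside those 3, 2 of 6 rose and 0 fell. Tomm22, a receptor of the outer membrane import complex, measured 3.51, 1.40 and 1.18 FPKM in wild type and 28.3, 31.4 and 24.3 FPKM in knockout (log2 3.33, SE 0.28, limma adjusted p = 0.00014). Timm44, which anchors the import motor, was at 0.256 ± 0.0640 and 4.23 ± 0.459 FPKM, Timm29 at 0.508 ± 0.356 and 6.22 ± 1.33 FPKM and Tomm5 at 0.149 ± 0.0400 and 4.21 ± 1.57 FPKM. These 3 were under 1 FPKM in each wild type library, and their values are given as a description. The outer membrane porin Vdac3 rose, at 5.43 ± 2.16 and 20.3 ± 4.21 FPKM (log2 1.76, SE 0.26, limma adjusted p = 0.0011). The porin Vdac1 was at 1.08 ± 0.601 and 5.86 ± 1.72 FPKM (log2 1.73), given as a description because of the filter. The pyruvate carrier subunit Mpc1 fell from 7.03 ± 1.76 to 3.43 ± 0.600 FPKM (log2 -0.84, limma adjusted p = 0.0098). Micu3, a regulator of the calcium uniporter, fell as well (log2 -0.49, limma adjusted p = 0.037). Mtch2, a carrier relative of the outer membrane, was at 14.0 ± 1.43 and 16.3 ± 1.95 FPKM (adjusted p = 0.34), and Ucp2 had at most 0.00723 FPKM.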

How the data were processed

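The data are 6 liver RNA libraries, 3 labelled wild type and 3 labelled Cdkl3-/-. Per the submitters' processing notes HISAT2 and GRCm39 were used. The sources used here name neither the counting tool nor its strand setting nor the annotation. The deposited tables hold FPKM values per gene, per the file headers. The header of knockout replicate 3 carries another sample code than its title, so its group follows the sample's label. Symbols name the rows, since the deposited identifiers do not match them. The chromosome 1 block and 119 rows without a symbol were left out. Exon length and GC content came from GENCODE M21 (GRCm38), by symbol. FPKM multiplied by length gave whole reads, to within 0.15 read, for 98.7% to 99.0% of low values per library (up to 40 reads) and for 100% of 65 low member values.

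The model was limma 3.58.1 (trend, robust; R 4.3.3) on log2(FPKM + 1), with genotype as the only term. On this scale fold changes of low genes are understated. Read rates were compared with Clopper-Pearson intervals, which take each read as independent. Many low member counts were even numbers, while others were odd. Reads counted in pairs would make these intervals too narrow and the floors of 3 reads too low, which was not tested. The fit was checked on simulated data. Other steps ran in Python 3.11.15 with scipy 1.17.1, pandas 2.3.3 and numpy 2.4.6, and plots in matplotlib 3.10.9. Members and lists were chosen with earlier results of these data known. All members are counted, and a few genes are not reported by name here. Members called with groups apart are given by library, other tested members by group values (Slc25a3, Slc25a4, Slc25a30 and Slc25a46 also by library, chosen after their values were seen), and of the other transport genes up to 6 with the smallest adjusted p, with Mpc1, Micu3, Mtch2, Ucp2 and Tomm40 named after their values were seen. Alternatives were another pseudocount, filter, threshold, moderation, scaling, base composition correction, a replicate block, the chromosome 1 rows and leaving out each library.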

Additional observations from a re-analysis of the deposited data

How the results depend on the processing

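Under all 18 alternatives Slc25a13, Slc25a16, Slc25a5, Slc25a32 and Slc25a24 were called lower where they were tested. Slc25a17 was called except at an adjusted p under 0.01 and after rescaling without mitochondrially encoded rows (log2 0.70, limma adjusted p = 0.065). No called member changed direction, and 9 of 316 member values changed sign without a call. Calls of Slc25a15, Slc25a20 and Slc25a21 were lost under several settings, some of them with a stricter limit or fewer libraries. The cause was not tested. Higher members numbered 3, and 6 without a filter, 0 at an adjusted p under 0.01, 1 after median centring, 0 after rescaling without mitochondrially encoded rows and 1 after removal of the GC trend. Leaving out 1 library in turn gave 1 to 3 higher and 5 to 9 lower members. Without wild type replicate 2 or 3 or knockout replicate 2 or 3, 1 member was higher. Among fits that leave out 1 library, shares of all genes were computed only for that without knockout replicate 1. All other transport genes called numbered 7 higher and 3 lower. Higher ones were 12 without a filter and 3 at 10 FPKM or more, and lower ones 1 at 10 FPKM or more, 1 after removal of the GC trend and 1 after removal of the GC and length trend. Without 1 library they ranged from 6 to 9 higher and 2 to 3 lower. Same-numbered libraries did not deviate together (Pearson's r across genes -0.0488, -0.0964 and 0.182), and with a replicate block 2 members were higher and 5 lower. No shares of all genes were computed for the replicate block or the filter at 10 FPKM. Cdkl3 was not called under any alternative, and its difference changed sign after median centring, quantile normalization and rescaling (-0.10, -0.14 and -0.02) and without wild type replicate 2 or knockout replicate 3. The alternatives for Cdkl3 were chosen after seeing the data. These results cannot separate the labelled genotype from sex.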
